A study of Rattus norvegicus with 4 samples.

Results

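The 9 genes described here encode proteins that the liver secretes into the blood: the hepatokines Angptl4, Lect2, Inhbe, Fetub and Ahsg, the hormone precursor Agt, and the carriers Ttr, Alb and Rbp4. They were chosen by symbol in the probe annotation of the array, and 8 of the 9 had a probe with that symbol alone, among 8985 genes represented in all. No probe carried the symbol Rbp4, which was not analysed here. Each of the 8 genes had 1 probe, and all 8 probes passed the filter on dim signals. Liver RNA came from male rats of the Otsuka Long-Evans Tokushima Fatty (OLETF) strain, which become obese and diabetic while eating normal chow. Of these rats, 2 drank water with 0.2% thiamine (vitamin B1, 2 g per L) for 51 weeks and 2 untreated rats drank water with 0% thiamine. Both groups ate standard chow, were housed 2 to a cage, began at 4 weeks of age and were killed at 55 weeks after 16 h without food. Each liver went onto its own 1-colour CodeLink array. The study had 8 rats in each group, and 2 of each were measured. No lean strain was among the arrays, so each value compares obese-prone rats with each other.

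Hepatocytes release most of the protein of blood plasma. Hepatokines are those of their secreted proteins that act on other organs as signals, while carriers such as albumin, transthyretin and retinol-binding protein keep fatty acids, thyroxine and retinol in solution. Several of these genes are known to follow feeding, lipid load or inflammation, which is why they are of interest in obesity.

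Of 33849 gene probes, between 18176 and 20071 were above background on an array, and 18664 were kept for testing. The number of animals limits the precision of all values, and nothing in the labels ties the replicate numbers to shared cages or litters. None of the 8 genes was near background on any array. Adjusted over the 18664 kept probes, limma called 0 probes (0%) at an adjusted p under 0.05, with 1260 at an unadjusted p under 0.05. Of all kept probes, 711 (3.81%) had such an unadjusted p and were higher in thiamine rats, 549 (2.94%) had one and were lower, and no member was among them. For single values, an exact permutation test of 2 rats against 2 cannot give a two-sided p below 0.333.

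The bar plot of scanner signals shows the division that decides what could be compared. Ahsg, Ttr and Alb were flagged as saturated on all 4 arrays, so the scanner gave no full reading for any rat and no fold is given. Angptl4, Lect2, Inhbe, Fetub and Agt were below saturation on every array and were compared.

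**Figure D1:**
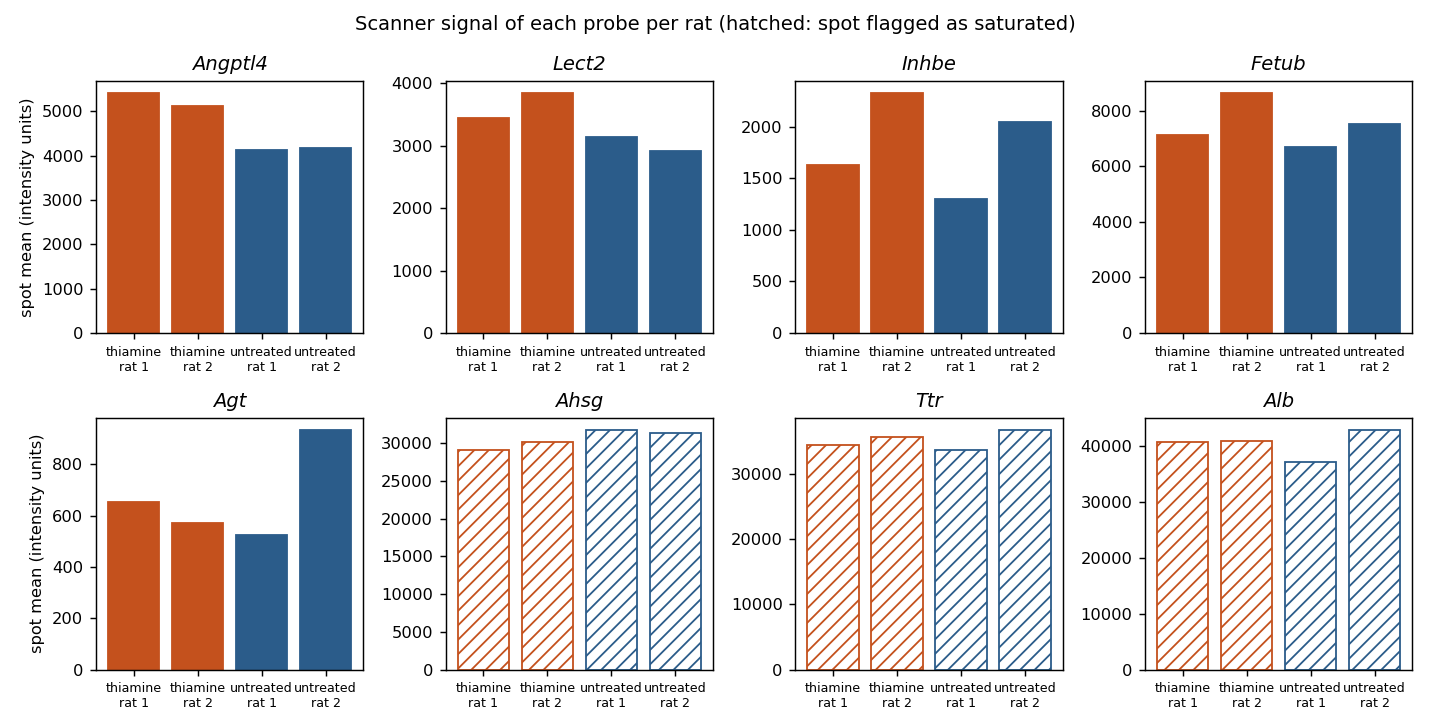
Mean scanner signal of the spot (linear intensity units, vertical axes from 0) for the 8 genes with a probe, with thiamine rats 1 and 2 in orange and untreated rats 1 and 2 in blue; each bar is 1 rat. Hatched bars are spots flagged as saturated, which are all 4 bars of Ahsg, Ttr and Alb. Heights in different panels belong to different probes and cannot be set against each other.

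Promoter sequences are given for 4 members whose genes are under different known control. RefSeq promoters, from 250 bases before to 50 bases after the gene start in build GRCr8, matched 6 of the 8 genes by symbol (Angptl4, Ahsg, Lect2, Inhbe, Ttr and Alb). Angptl4 is shown for its groups that did not overlap, Inhbe for its range within groups, and Lect2 and Alb for the liver factor motif they hold in common. Their windows are chr7:15258632-15258931 (minus strand) for Angptl4, chr7:65064470-65064769 (minus strand) for Inhbe, chr17:8049784-8050083 (plus strand) for Lect2 and chr14:17906930-17907229 (minus strand) for Alb. Each reads 5′ to 3′ along the gene. Capitals mark matches to 4 motifs, searched on both strands. The half-site of the liver factor HNF1 was searched as GTTAAT. For the TATA box the letters were TATAAA. For the CCAAT box they were the letters of its name. The composite element of C/EBP and ATF factors was searched as TTNCATCA, with N any base.
Angptl4: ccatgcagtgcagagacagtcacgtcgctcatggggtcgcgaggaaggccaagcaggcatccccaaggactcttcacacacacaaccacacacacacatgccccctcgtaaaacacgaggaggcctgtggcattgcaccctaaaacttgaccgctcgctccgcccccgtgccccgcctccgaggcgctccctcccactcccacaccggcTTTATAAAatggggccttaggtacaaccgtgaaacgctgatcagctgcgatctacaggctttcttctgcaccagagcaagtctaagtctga
Inhbe: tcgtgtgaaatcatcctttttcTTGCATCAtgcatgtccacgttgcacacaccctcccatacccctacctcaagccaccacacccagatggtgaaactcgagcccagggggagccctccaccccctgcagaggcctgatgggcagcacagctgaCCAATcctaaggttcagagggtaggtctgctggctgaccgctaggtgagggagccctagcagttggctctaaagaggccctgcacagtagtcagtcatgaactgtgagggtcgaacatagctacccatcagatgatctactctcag
Lect2: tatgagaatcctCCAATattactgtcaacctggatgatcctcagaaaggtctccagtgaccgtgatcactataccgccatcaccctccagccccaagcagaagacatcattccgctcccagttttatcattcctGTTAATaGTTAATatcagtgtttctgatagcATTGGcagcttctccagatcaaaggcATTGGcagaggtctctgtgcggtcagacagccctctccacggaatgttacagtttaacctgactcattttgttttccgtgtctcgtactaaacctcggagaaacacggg
Alb: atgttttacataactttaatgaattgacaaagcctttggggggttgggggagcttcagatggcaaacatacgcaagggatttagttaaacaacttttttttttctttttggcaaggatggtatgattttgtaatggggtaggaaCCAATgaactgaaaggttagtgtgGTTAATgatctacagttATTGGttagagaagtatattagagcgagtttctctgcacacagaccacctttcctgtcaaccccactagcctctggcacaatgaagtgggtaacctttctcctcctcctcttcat

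Lect2 held the HNF1 half-site at 2 places on the same strand, starting 116 and 109 bases before the gene start, and Alb held it once, 82 bases before the start. Of 33365 RefSeq promoter windows of the same length, 7.46% held this motif. Inhbe held TTGCATCA, a match to the composite element, starting 228 bases before its start, as 3.98% of windows did. The TATA box of Angptl4, which overlapped a match on the other strand, began 39 bases before the start, and 14.2% of windows held that motif. CCAAT boxes were in Inhbe, Lect2, Alb and Ttr, against 37.5% of all windows, and Ahsg held none of the 4 motifs. A match to so few letters describes the sequence and does not show that a factor was bound. The G+C content was 58.3% for Angptl4, 55.7% for Inhbe, 46.7% for Lect2 and 40.7% for Alb, against a median of 51.7%.

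Angptl4 encodes a secreted inhibitor of lipoprotein lipase, the enzyme that frees fatty acids from blood triglycerides, and its gene is known to be induced by fasting through the fatty acid receptor PPAR alpha. Its spot mean was 5410 and 5125 in thiamine rats 1 and 2, and 4122 and 4176 in untreated rats 1 and 2. After background correction and quantile normalization the log2 signal was 12.24 and 12.27 in the thiamine rats, against 12.11 and 12.06 in the untreated rats. Both thiamine livers thus lay above both untreated livers, by 0.13 between the nearest rats of the groups. The mean was 12.26 ± 0.015 in thiamine rats and 12.09 ± 0.036 in untreated rats (SD, n = 2 each). That gave a log2 difference of 0.17 with a moderated SE of 0.18, a 1.12-fold ratio with a 95% interval of 0.86 to 1.47, and an adjusted p of 0.91 (limma). The SE borrows from the spread of all kept probes and is wider than the 4 values of Angptl4 alone would give.

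Angptl4 was the 1 of the 5 compared genes whose groups did not overlap. Of all 18664 kept probes, 36.2% had groups that did not overlap, 17.8% with the thiamine rats higher and 18.3% with them lower, so 1 of 5 is no more than that background. A larger difference in size than that of Angptl4 was also common, since 55.2% of kept probes had a smaller one. On the array of thiamine rat 1 its spot was flagged as contaminated, and with such spots set to missing the difference was 0.19, resting on thiamine rat 2 alone in its group.

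Lect2 encodes leukocyte cell-derived chemotaxin 2, a hepatocyte protein that has been linked to insulin resistance of muscle. The spot means were 3442 and 3842 in thiamine rats 1 and 2 and 3139 and 2914 in untreated rats 1 and 2. On the log2 scale they became 11.62 and 11.83 in the thiamine livers, against 11.70 and 11.54 in the untreated livers. Thiamine rat 1 lay between the untreated rats once the arrays were normalized, so the groups overlapped. Its promoter, printed above, is the one with the HNF1 half-site at 2 places. The difference was 0.11 ± 0.18 (log2, moderated SE), a 1.08-fold ratio with an interval of 0.81 to 1.43 (limma, adjusted p = 0.95).

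Inhbe encodes the subunit of activin E, a liver-made member of the transforming growth factor beta family that acts on fat tissue. Its spot means were 1631 and 2327 in thiamine rats 1 and 2, against 1301 and 2046 in untreated rats 1 and 2. The log2 signal was 10.52 and 11.08 in the thiamine rats, and 10.39 and 11.03 in the untreated rats. Each group held 1 rat with a low value and 1 with a high value, 1.48-fold apart in the thiamine group and 1.56-fold apart in the untreated group. These distances within a group were larger than those of 96.1% of kept probes in the thiamine group and of 92.9% in the untreated group. The difference between the groups, 0.086 ± 0.25 on the log2 scale, was smaller than either, with a 1.06-fold ratio and an interval of 0.72 to 1.57 (limma, adjusted p = 0.97). The direction for Inhbe depended on single rats: it was -0.23 without untreated rat 1 and -0.20 without thiamine rat 2, and 0.41 without untreated rat 2 and 0.37 without thiamine rat 1.

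Fetub and Ahsg encode the fetuins B and A, relatives of the cystatin protease inhibitors, and stand next to each other on chromosome 11 of the rat annotation GRCr8, beside the histidine-rich glycoprotein gene Hrg. Fetuin-A binds calcium phosphate in plasma and can inhibit the insulin receptor kinase, and fetuin-B is a protease inhibitor needed for fertility in female mice. For Fetub the spot means were 7114 and 8635 in thiamine rats 1 and 2, against 6711 and 7529 in untreated rats 1 and 2. In log2 units these were 12.68 and 13.02 in the thiamine livers, and 12.79 and 12.92 in the untreated livers, with both untreated rats inside the range of the thiamine rats. The difference of Fetub was -0.0032 ± 0.19, with an interval of -0.43 to 0.42 (limma, adjusted p = 1.0). Of kept probes, 1.1% had a difference closer to 0, while the interval still admits a ratio from 0.74 to 1.34. The spot mean of Ahsg was 29100 and 30205 in the thiamine rats, against 31768 and 31400 in the untreated rats, each time with the saturation flag. Neither the size nor the direction of a difference in Ahsg can be read from these spots.

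**Figure D2:**
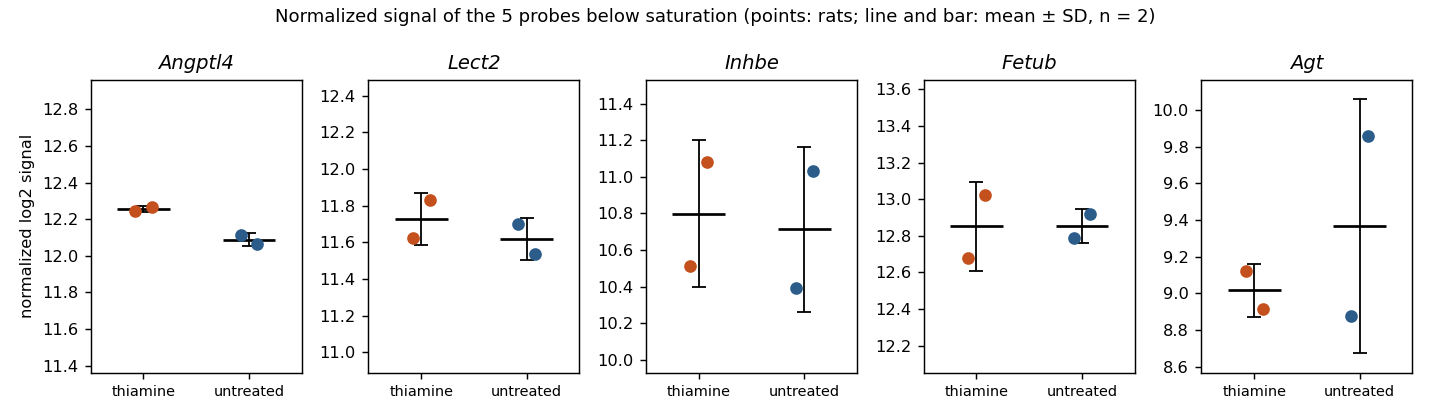
Normalized log2 signal (vertical axes, each spanning the same 1.6 log2 units) of the 5 genes below saturation, with thiamine rats in orange at left and untreated rats in blue at right; points are rats, lines are means and bars are SD (n = 2 each). The groups are apart for Angptl4 and overlap for Lect2, Inhbe, Fetub and Agt, and the widest group is the untreated one of Agt, at 8.88 and 9.86.

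Agt encodes angiotensinogen, the precursor from which renin cuts the first angiotensin peptide, and its transcription in rat liver is known to rise with glucocorticoids and in inflammation. Its spot means were 651 and 572 in thiamine rats 1 and 2, against 525 and 934 in untreated rats 1 and 2. The log2 signal was 9.12 and 8.91 in the thiamine rats, and 8.88 and 9.86 in the untreated rats. Untreated rat 2 stood above the other 3 rats, and untreated rat 1 had the lowest value of all 4. The untreated rats were 1.97-fold apart, a distance larger than that of 98.6% of kept probes in this group, while the thiamine rats were 1.15-fold apart. The mean was 9.02 ± 0.15 in thiamine rats and 9.37 ± 0.69 in untreated rats (SD, n = 2 each), with a difference of -0.35 ± 0.28 (log2, moderated SE), a ratio of 0.78 and a 95% interval of 0.51 to 1.20 (limma, adjusted p = 0.88).

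The value of Agt rested on untreated rat 2. Without that rat the difference was 0.14, and without untreated rat 1 it was -0.84. The spots of thiamine rat 1 and untreated rat 1 were flagged as contaminated, and with flagged spots missing the difference was -0.95, from 1 rat per group and so with no spread of its own to test it by. Its spots were also the dimmest of the members relative to their surroundings, at between 3.5 and 7.41 times the local background.

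Ttr and Alb encode transthyretin, which carries thyroxine and holds retinol-binding protein in the circulation, and serum albumin, the main carrier of fatty acids. The spot mean of Ttr was 34478 and 35702 in thiamine rats 1 and 2, against 33669 and 36774 in untreated rats 1 and 2. That of Alb was 40649 and 40883 in the thiamine rats, against 37104 and 42926 in the untreated rats. All 8 of these spots carried the saturation flag, and each group reached into the range of the other. The lowest spots with that flag on any gene probe read 25840 and 27580 in thiamine rats 1 and 2, and 28380 and 27270 in untreated rats 1 and 2. Some spots of other genes read as high as 35552 without the flag, so it does not mark a single ceiling. A second probe, annotated to both Rpap3 and Alb, was flagged near background on all 4 arrays, with spot means of 140 and 169 in the thiamine rats and of 156 and 147 in the untreated rats. It cannot stand in for Alb.

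Saturation was rare on these arrays and reached many carriers. Of the kept probes, 26 (0.139%) were saturated on all 4 arrays, and 21 of these had a gene name. Beside the 3 members, 5 of the 15 kept genes on a list of other plasma carriers were saturated throughout: transferrin (Tf), the haem carrier hemopexin (Hpx), the haemoglobin carrier haptoglobin (Hp), the vitamin D carrier Gc and Ambp, whose product carries retinol and other small molecules. Selenop, the selenium carrier of plasma and a hepatokine, was saturated on all arrays as well. For these genes the arrays show saturated signal in all 4 livers and give no measure of a difference.

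Across the 5 compared members, 3 differences were above 0 and 2 below, with a median of 0.086 on the log2 scale. Over all kept probes 50.9% were above 0 and 49.1% below, and the median was 0.0054. The 5 differences lay between -0.35 and 0.17, where the 5th and 95th percentiles of all kept probes were -0.37 and 0.41. Every interval included 0, and the widest bounds were 0.51, for the ratio of Agt, and 1.57, for that of Inhbe. Without untreated rat 2 all 5 were above 0, and without untreated rat 1 or thiamine rat 2 only 2 were.

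**Figure D3:**
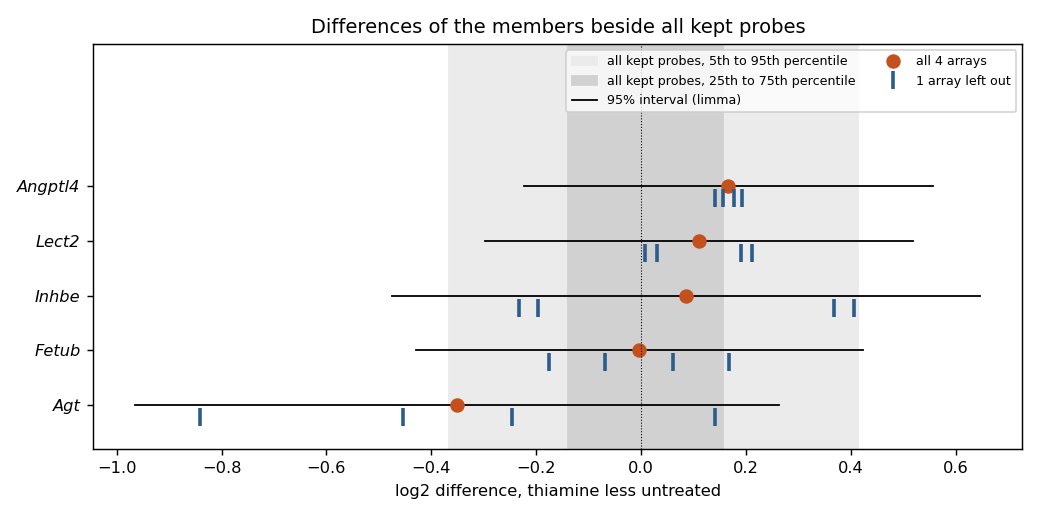
Log2 difference, thiamine less untreated, of the 5 members below saturation (horizontal axis): orange points use all 4 arrays, black lines are 95% intervals from limma, blue ticks are the values with 1 array left out, and grey bands hold the middle of all 18664 kept probes. All 5 intervals include 0, and the ticks of Inhbe, Fetub and Agt lie on both sides of it.

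Beside the members, other secreted signals of the liver gave no called difference. Of 12 compared genes on a list of other hepatokines 7 were above 0 and 5 below, with a median of 0.029, and limma called 0 over all probes. Without thiamine rat 2, 4 of the 12 were above 0. The stress hormone Gdf15 was at 10.78 and 10.68 in thiamine rats, against 10.08 and 10.48 in untreated rats (difference 0.45 ± 0.20, limma, adjusted p = 0.72). Fgl1, a hepatocyte protein of the fibrinogen family, was at 13.58 and 13.42 in thiamine rats and at 13.76 and 14.01 in untreated rats (-0.39 ± 0.19). Both are among the 4 of the 12 genes, 2 above 0 and 2 below, whose groups did not overlap, against 36.2% of all kept probes. Igfbp2, which binds insulin-like growth factors, was at 8.48 and 8.91 in thiamine rats, against 8.67 and 9.87 in untreated rats. Untreated rat 2 was the highest, and its spot was flagged as irregular. The difference of -0.58 ± 0.33 ran from -1.18 to 0.026 with 1 array left out. Angptl8, a partner of the lipase inhibitors, was at 11.63 and 11.45 in thiamine rats and at 11.40 and 12.07 in untreated rats, and the difference was -0.19 ± 0.23.

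Lipase control and fatty acid genes give the setting of Angptl4. Of 4 compared genes of lipoprotein lipase control 3 were above 0 and 1 below, with a median of 0.097, and Lipc, the hepatic lipase, was at 0.22 ± 0.25. Apoc2, 1 of the 4, was flagged as saturated in both thiamine rats and in untreated rat 2, so its difference is not a full reading. With saturated spots missing, 2 of 3 were above 0, and with arrays scaled to the median, 2 of 4 were. Of 13 compared targets of PPAR alpha, the receptor itself included, 8 were above 0 and 5 below, the median was 0.013 and limma called 0 over all probes. Pdk4, a kinase that inhibits pyruvate dehydrogenase and a target that Angptl4 is often measured with, was at 9.50 and 9.85 in thiamine rats, against 8.77 and 8.94 in untreated rats. Hilpda, a lipid droplet protein, was at 9.75 and 10.04 in thiamine rats and 9.15 and 9.43 in untreated rats. The groups of both genes were apart, at differences of 0.82 ± 0.19 and 0.61 ± 0.20, which limma did not call (adjusted p = 0.25 and 0.49). Both were named for their small unadjusted p, which favours groups that are apart. Of the 13 genes, 5 had groups apart with the thiamine rats higher and 1 with them lower. Over all kept probes 36.2% had groups apart in either direction. Ppara itself was at 8.71 and 9.06 in thiamine rats, against 8.68 and 9.07 in untreated rats.

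Activin genes and stress response genes give the setting of Inhbe, beside 50.9% of all kept probes above 0. Of 5 compared activin and inhibin genes 1 was above 0 and 4 below, with a median of -0.21, and leaving out 1 array gave between 0 and 2 above 0. Besides the subunit genes Inhba and Inhbc, the 5 are activin receptors, so the count is not one of Inhbe relatives alone. The spot of 1 receptor in thiamine rat 1 was flagged as contaminated and near background. Inhbc, which encodes the other liver activin subunit and neighbours Inhbe in the annotation, was at 9.78 and 10.21 in thiamine rats, against 10.31 and 10.52 in untreated rats (-0.42 ± 0.20, limma, adjusted p = 0.77). Inhba, the subunit of activin A, was at 7.89 and 8.04 in thiamine rats and 8.37 and 8.58 in untreated rats (-0.51 ± 0.18, adjusted p = 0.57), with groups apart. Groups were apart for 3 of the 5 genes, all lower in thiamine rats, against 36.2% of all kept probes in either direction. Both untreated spots of Inhba, and for Inhbc the spots of thiamine rat 1 and untreated rat 1, were flagged as contaminated. Of 7 compared genes of the integrated stress response, which is known to induce Inhbe in cultured cells, 6 were above 0 and 1 below, with a median of 0.24, and without untreated rat 1 only 3 were above 0. Its transcription factors Atf3 and Ddit3 were at 1.02 ± 0.20 and 0.42 ± 0.19, and the pseudokinase Trib3 was at 0.42 ± 0.22 (limma, adjusted p between 0.22 and 0.80). These are the genes of the list with the smallest unadjusted p. Atf4, another transcription factor of the list, was at 0.038 ± 0.20. Neither list held a called gene.

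Other carriers of plasma give the setting of Ttr and Alb, which could not be compared. Of 10 compared genes on the list of other plasma carriers 3 were above 0 and 7 below, with a median of -0.12, and 5 were above 0 without untreated rat 1 or from the deposited value table. Afp, the fetal relative of albumin and its neighbour on chromosome 14 in the annotation, was at 10.45 and 10.22 in thiamine rats, against 11.26 and 11.04 in untreated rats. Serpina7, thyroxine-binding globulin, was at 7.57 and 7.91 in thiamine rats and 8.65 and 8.44 in untreated rats. In both the thiamine livers were below the untreated ones, with differences of -0.82 ± 0.19 for Afp and -0.80 ± 0.20 for Serpina7 on the log2 scale, and limma called neither (adjusted p = 0.25 and 0.27). They were the only 2 of the 10 genes whose groups did not overlap, against 36.2% of all kept probes in either direction. As the groups of both genes did not overlap, leaving out 1 array could not change the sign. The differences then ran from -0.93 to -0.70 for Afp and from -0.97 to -0.63 for Serpina7. The Serpina7 spot of untreated rat 1 was flagged as irregular. Orm1, a carrier of drugs and an acute phase protein, was at 12.20 and 12.09 in thiamine rats, against 12.09 and 13.38 in untreated rats, again with untreated rat 2 the highest.

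Among the genes around retinol and thyroid hormone, 3 of 6 compared were above 0 and 3 below, and all lay between -0.19 and 0.16. Without thiamine rat 1, only 1 of these 6 was above 0. The retinoic acid receptor Rara was at -0.19 ± 0.18 and the thyroid hormone receptor Thrb at 0.16 ± 0.18. Rara had 2 kept probes, and the dimmer one had the other sign. The cystatin relatives of the fetuins were represented by Hrg (0.10 ± 0.19) and Cst3 (-0.11 ± 0.18). The Cst3 spots of thiamine rat 1 and untreated rat 2 were flagged as contaminated. With contaminated or irregular spots missing, 2 of the 2 genes were above 0, Cst3 from 1 rat per group. Of the insulin receptor and its substrates, Irs2 was at 9.18 and 8.92 in thiamine rats, against 8.57 and 8.23 in untreated rats (0.65 ± 0.20, limma, adjusted p = 0.44), and Insr was at -0.074 ± 0.18.

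The renin-angiotensin genes gave 3 of 5 compared above 0 and 2 below. Agtr1a, the main receptor of angiotensin II, was at 10.21 and 9.74 in thiamine rats, against 10.26 and 10.87 in untreated rats (-0.59 ± 0.24, limma, adjusted p = 0.67). Untreated rat 2 was the highest of the 4 for this gene as for Agt. The prorenin receptor Atp6ap2 and the angiotensin-cleaving peptidase Enpep were at 0.24 ± 0.21 and 0.21 ± 0.20. The spots of Atp6ap2 in thiamine rat 1 and of Enpep in untreated rat 2 were flagged as contaminated. With contaminated or irregular spots missing, 2 of the 5 genes were above 0.

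Factors that drive liver-specific genes were not called either. Of 9 compared hepatocyte transcription factors 4 were above 0 and 5 below (7 above 0 without thiamine rat 1), with Foxa2 at 0.44 ± 0.23, Cebpa at 0.31 ± 0.19 and Onecut1 at 0.29 ± 0.18 (limma, adjusted p between 0.80 and 0.84). In bulk liver, fewer cells of a type and less RNA per cell cannot be told apart. All 7 measured of 9 listed Kupffer cell markers were above 0, with a median of 0.62, against 50.9% of all kept probes above 0, and limma called 0 of the 7. Their summed spot means were 26447 and 18140 in thiamine rats, against 15312 and 10361 in untreated rats, and none was near background. The sum over the 6 measured of 9 listed hepatocyte markers was 132397 and 136593 in thiamine rats, and 118883 and 107652 in untreated rats. Of these markers 4 were above 0 and 2 below, with a median of 0.34. In thiamine rat 1 the spot of 1 of them was flagged as saturated, so that sum is not a full reading. With saturated spots missing, 5 of the 6 were above 0. Both sums use spot means that were not normalized, so the overall brightness of each array enters them. The medians are of normalized values. The part of either set in the values of the secreted proteins was not tested.

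**Figure D4:**
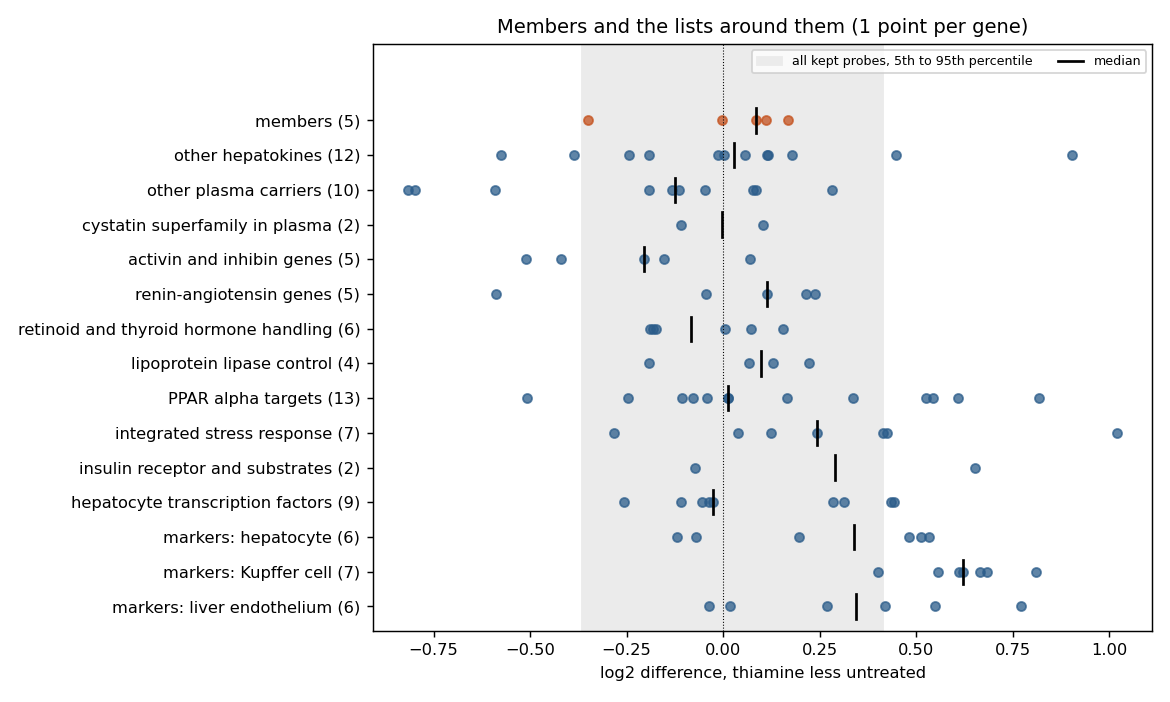
Log2 difference, thiamine less untreated (horizontal axis), of every compared gene of the members (orange) and of the lists around them (blue), 1 point per gene, with medians as black bars and, in grey, the 5th to 95th percentiles of all 18664 kept probes; numbers of genes are in parentheses. The 5 members lie inside the grey band, the carriers Afp and Serpina7 lie left of it near -0.8, and the Kupffer cell markers lie to the right of 0.

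By their values over the 4 arrays, the genes most like Agt were Cxadr, Tbl1xr1 and Tex2. Likeness here is the distance between log2 values centred on each gene's mean, 0.079, 0.12 and 0.14, among 8956 genes. Cxadr, a cell junction receptor, was at 10.69 and 10.48 in thiamine rats, against 10.50 and 11.37 in untreated rats. Untreated rat 2 was alone at the top, which follows from choosing Cxadr by its likeness to Agt. For Angptl4 the nearest were Serpini2, Mybl2 and Emsy, at distances of 0.015, 0.018 and 0.023. The values were not scaled, and those of Angptl4 span little, so any gene with nearly level values lies close to it.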

How the data were processed

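The 4 scanner reports come from CodeLink Expression Analysis 5.0.0.31312, per the file headers. They hold, as deposited, the spot mean and the local background median as intensity on a linear scale, not normalized. The deposited value table of the series holds intensity values of the same arrays, and the sources used here do not say how the authors made it. Background was corrected with normexp (offset 50) over 35129 features, 1280 control features were left out, and log2 values of 33849 gene probes were quantile normalized. Masked spots (55 to 67 per array) were missing, and other flagged spots were kept. A probe was kept if it was above background on both rats of a group. Of the gene probes, 16740 took 1 symbol from GEO's array annotation, brought up to RefSeq GRCr8 by gene identifier, and 367 were named by RefSeq accession. Probes with several symbols (165) or conflicting names (13) were unnamed, as were 16564 without a name.

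The test was limma (version 3.58.1, R 4.3.3), fitted with lmFit and eBayes to all kept probes without covariates. P-values are two-sided, adjusted by Benjamini-Hochberg, and called under 0.05. Each probe had 2 residual degrees of freedom, and 10.8 after moderation. Unless stated, SE is limma's and SD is over rats. The fit was tested on simulated data. Genes are represented by their brightest kept probe. The members and lists were chosen with earlier results of these data known. Named genes are every member, up to 3 genes per list by the smallest unadjusted p, family members of the listed genes and the 3 genes nearest in pattern to each of the 2 members with the largest difference. Ppara, Apoc2, Atf4, the saturated carriers and Selenop are named outside this rule, after their values were seen. A gene that the rule names is not reported here. Alternatives changed the background correction, offset, scaling, filter, flagged or saturated spots, source of values, replicate block and arrays. P-values set each difference against the spread between these rats, moderated over all kept probes.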

Additional observations from a re-analysis of the deposited data

How the results depend on the processing

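Over 14 alternatives none of the 5 compared members passed the threshold, with adjusted p (limma) between 0.14 and 1.0. Angptl4 (0.14 to 0.19) and Lect2 (0.0081 to 0.21) stayed above 0 in all of them. The alternative filters and the replicate block leave each member's difference as it was, so they could not change a sign. For Angptl4, whose groups did not overlap, leaving out 1 array could not change the sign. Fetub turned to 0.015 with saturated spots missing. With 1 array left out, Fetub ran from -0.18 to 0.17, Inhbe from -0.23 to 0.41 and Agt from -0.84 to 0.14. The number of members above 0 then ran from 2 to 5 and their median from -0.175 to 0.177; it was -0.068 without untreated rat 1. Over all probes the count of 0 calls became 126 with the replicate number as a block (replicate block), where Agt was at -0.35 with an adjusted p of 0.96, and 1 to 65 with 1 array left out, which takes the single rat left in a group to have the spread of the pair. Deviations of same-numbered rats correlated at -0.074 over probes, so the numbers are not taken to pair rats. Scan date or slide as a block was not run, since each report names its own slide. With contaminated or irregular spots missing, Agt was at -0.95 from 1 rat per group, where its p rests on the spread of other probes alone. Averaging probes changes nothing here, as each member has 1. Saturation limits Ahsg, Ttr and Alb on every array.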

Other observations

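None of the markers of other liver cells was called. Of 5 measured stellate cell markers 3 were above 0 and 2 below, with a median of 0.021 on the log2 scale, and the pericyte gene Rgs5 was at 0.35 ± 0.18 (limma, adjusted p = 0.80). All 3 measured lymphocyte markers were above 0 (1 without thiamine rat 1), with a median of 0.23, as were 5 of 6 markers of the liver endothelium (3 without thiamine rat 1), with a median of 0.34. Lyve1, a receptor of liver sinusoids, was at 10.82 and 10.52 in thiamine rats, against 9.72 and 10.08 in untreated rats (0.77 ± 0.20, adjusted p = 0.31). The bile duct markers Krt19 and Epcam were at 0.34 ± 0.19 and -0.35 ± 0.27. The 2 measured red cell precursor markers were at 0.15 and 0.25.

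Fgf21, a hepatokine that rises with fasting and was named after its values were seen, was at 12.73 and 12.70 in thiamine rats, against 10.65 and 12.97 in untreated rats. Untreated rat 1 was alone at the bottom, and the difference of 0.90 ± 0.53 (limma, adjusted p = 0.82) ran from -0.26 to 2.06 with 1 array left out. Acot1, an acyl-CoA thioesterase also picked after its values were seen, was at 8.17 and 8.85 in thiamine rats, against 7.77 and 10.27 in untreated rats, again with the untreated rats at both ends. Its spot in untreated rat 1 was flagged as contaminated and near background, so the low end is not a firm level.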
